A study of Mus musculus with 4 samples.

Results

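The 9 membrane-bound adenylyl cyclases, Adcy1 to Adcy9, were examined in the fosTRAP-seq translatome of mouse CA1 neurons. They were picked by gene symbol alone from the deposited table of 28193 genes, and all 9 were listed and had enough counts to be tested, among 22338 genes tested in all. fosTRAP-seq sequences RNA bound to ribosomes of neurons that expressed c-Fos in a tagging window. Adult male C57BL/6J mice, 3 to 5 months of age, received AAVs in dorsal CA1 that carried a c-Fos-driven ERT2-Cre-ERT2 and a Cre-dependent, HA-tagged Rpl22 (RiboTag) under the EF1a promoter, and 4-hydroxytamoxifen opened the tagging window. An HA antibody was used to pull the tagged ribosomes from tissue lysate. All mice, controls included, were sleep deprived for 5 h on day 0, when the cells were tagged. On day 7 the SD group was deprived for 5 h again and the NSD group was left undisturbed, and CA1 was collected at ZT5. The GEO labels instead give the tissue as dorsal hippocampus and the genotype as cFos-Cre:Ribotag. Each library pooled CA1 from 5 mice, so 10 mice per group gave n = 2 libraries, and every standard deviation (s.d.) below is a spread between 2 pools. The labels number the libraries by batch, with an NSD and an SD library in each of batches 1 and 2.

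The estimated counts summed to between 153511705 and 195910235 per library, so counting error was small for every isoform except Adcy4 and Adcy7. All 8 pyramidal and CA1 markers were detected, the least abundant at a mean of 80.7 CPM (counts per 1e6 counts of the library). Markers of other cell types were present as well, with summed values of 3040.2 to 3621 CPM for 8 astrocyte genes, 1613 to 1940.0 CPM for 8 oligodendrocyte genes and 775 to 883 CPM for 8 interneuron genes. The values describe immunoprecipitated RNA, and in such pools fewer cells of a type and less RNA per cell cannot be told apart.

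Adenylyl cyclases convert ATP to cyclic AMP (cAMP), the messenger that activates protein kinase A and the exchange factors of the Rap GTPases. All 9 membrane isoforms respond to the stimulatory G protein alpha subunit, and they differ in what else they read. Adcy1 and Adcy8 are stimulated by Ca2+ bound to calmodulin, as is Adcy3 under some conditions, which couples NMDA receptor activity to cAMP in hippocampal plasticity and memory. Adcy2, Adcy4 and Adcy7 are stimulated by G protein beta-gamma subunits when the alpha subunit is also active, Adcy5 and Adcy6 are inhibited by low concentrations of Ca2+, and Adcy9 responds poorly to the plant diterpene forskolin.

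Sequence just upstream of the start of transcription is shown for 3 isoforms, chosen for their level or for a contrast described below. Adcy1 and Adcy5 were the most abundant isoforms and the ones called higher after SD in part of the fits, and Adcy8 is the other strongly Ca2+/calmodulin-stimulated isoform, whose difference between groups did not pass the test. Each window holds the 250 bases before the start of the GENCODE M39 canonical transcript on GRCm39, read 5′ to 3′ on the strand of the gene. The windows are chr11:7013080-7013329 on the plus strand for Adcy1, chr16:34974773-34975022 on the plus strand for Adcy5 and chr15:64794988-64795237 on the minus strand for Adcy8. Capitals mark every match, on either strand, to any of the following motifs. The cAMP response element was searched as TGACGTCA, with its core, which lies inside it, as TGACG. The GC box was searched as GGGCGG and appears as its reverse complement in the windows shown. The E-box was searched as CACGTG and the TATA box was searched as TATAAA.
Adcy1: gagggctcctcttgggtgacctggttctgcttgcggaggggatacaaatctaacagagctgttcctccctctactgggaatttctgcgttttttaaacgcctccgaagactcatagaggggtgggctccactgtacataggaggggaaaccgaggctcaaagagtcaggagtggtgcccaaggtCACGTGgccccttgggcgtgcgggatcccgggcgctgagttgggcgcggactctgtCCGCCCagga
Adcy5: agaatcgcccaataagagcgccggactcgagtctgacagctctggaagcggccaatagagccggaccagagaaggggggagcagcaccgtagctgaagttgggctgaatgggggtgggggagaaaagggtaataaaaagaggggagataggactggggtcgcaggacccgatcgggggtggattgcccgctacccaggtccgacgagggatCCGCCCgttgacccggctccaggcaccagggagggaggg
Adcy8: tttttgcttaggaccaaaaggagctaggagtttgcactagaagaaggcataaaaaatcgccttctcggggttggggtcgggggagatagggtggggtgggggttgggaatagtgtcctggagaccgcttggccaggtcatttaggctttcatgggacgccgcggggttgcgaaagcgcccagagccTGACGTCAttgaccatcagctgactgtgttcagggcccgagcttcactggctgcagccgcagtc
Adcy8 held the full cAMP response element, starting 64 bases upstream of its start site, and no other member's window did. Among windows of the same length at 15533 protein-coding genes, 1.90% held that 8-base element and 21.6% held its core, which among the isoforms occurred in Adcy3 and Adcy8. The Adcy1 window had an E-box starting 66 bases upstream of the start site, a motif found in 7.35% of the windows. Both the Adcy1 and Adcy5 windows had a GC box, as did 46.4% of all windows, and none of the 3 shown had the TATA box found in 7.74%. These are matches of letters, and binding was not measured.

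The family differed in level by over 3 orders of magnitude, with Adcy1 far above the rest. Levels were compared between genes as TMM-scaled CPM per kilobase of annotated exon. Adcy1 (ENSMUSG00000020431, chromosome 11, 7013330 to 7128506, plus strand, 20 exons in the canonical transcript) stood at 204 and 197 CPM per kb in NSD libraries 1 and 2 and at 252 and 256 CPM per kb in SD libraries 1 and 2. Its mean level of 227 CPM per kb was 32nd of 15533 tested protein-coding genes. All ranks here are among those, so genes with too few counts to be tested are left out. Adcy5 (ENSMUSG00000022840, chromosome 16, 34975023 to 35126113, plus strand) came next at 38.7 and 37.7 CPM per kb in NSD and 45.8 and 46.4 CPM per kb in SD, a mean of 42.1 that was above 96.5% of protein-coding genes. A group of 5 isoforms followed at means between 11.0 and 4.98 CPM per kb. These were Adcy2 (ENSMUSG00000021536, chromosome 13, 68758255 to 69147818, minus strand) at 11.0, Adcy9 (ENSMUSG00000005580, chromosome 16, 4102752 to 4238428, minus strand) at 9.86, Adcy6 (ENSMUSG00000022994, chromosome 15, 98487854 to 98507957, minus strand) at 8.08, Adcy3 (ENSMUSG00000020654, chromosome 12, 4182969 to 4263527, plus strand) at 5.38 and Adcy8 (ENSMUSG00000022376, chromosome 15, 64568933 to 64794987, minus strand) at 4.98 CPM per kb. Adcy7 (ENSMUSG00000031659, chromosome 8, 88998882 to 89059394, plus strand) had a mean level of 0.418 CPM per kb and Adcy4 (ENSMUSG00000022220, chromosome 14, 56006514 to 56021552, minus strand) one of 0.136 CPM per kb. Only 22.7% and 11.7% of the tested protein-coding genes were below them.

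**Figure D1:**
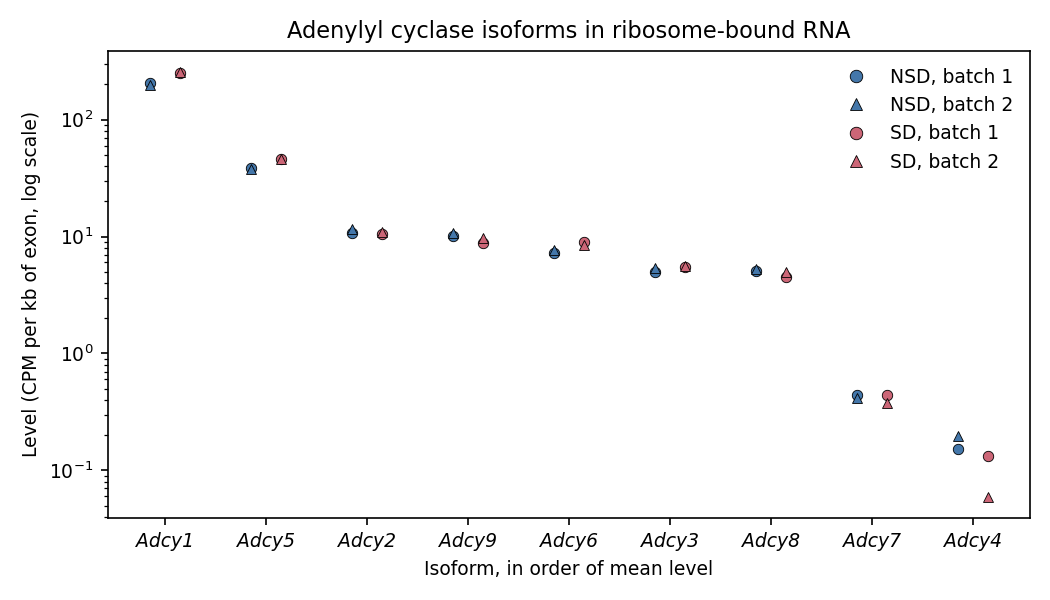
Level of each adenylyl cyclase isoform in the 4 libraries, in CPM per kilobase of exon on a log axis, with NSD in blue, SD in red, circles for batch 1 and triangles for batch 2. Adcy1 lies between 197 and 256 CPM per kb, Adcy5 between 37.7 and 46.4, the next 5 isoforms between 4.51 and 11.7, and Adcy7 and Adcy4 at or below 0.443.

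Some neighbors in this order were not separated by their spread over the 4 libraries. The ranges of Adcy2 (10.6 to 11.7 CPM per kb) and Adcy9 (8.76 to 10.8) overlapped, as did those of Adcy9 and Adcy6 (7.26 to 9.01) and those of Adcy3 (4.99 to 5.64) and Adcy8 (4.51 to 5.27). Within single libraries Adcy2 was above Adcy9 in 4 of 4, whereas Adcy9 was above Adcy6, and Adcy3 above Adcy8, in 3 of 4. The ranges of the other neighbors in the order did not overlap. These comparisons hold for all annotated exons as the length. Per kb of the longest protein-coding transcript, Adcy2 (31.9 to 35.4) and Adcy9 (17.3 to 21.3) were apart. Adcy9 was then also apart from Adcy6 (8.36 to 10.4), and Adcy3 (8.19 to 9.26) from Adcy8 (5.24 to 6.12). The ranges of Adcy6 and Adcy3 overlapped with that length.

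Adcy1 made up most of the family. Its share of the summed isoform level was 72.4% and 71.4% in NSD and 74.8% and 74.7% in SD. Adcy5 contributed 13.7% and 13.6% in NSD and 13.6% in each SD library. The Ca2+-stimulated Adcy1 and the Ca2+-inhibited Adcy5 were thus together the bulk of the adenylyl cyclase RNA in the immunoprecipitates. No library of unprecipitated RNA was available, so enrichment on tagged ribosomes was not tested. The shares of Adcy9 were 3.62% and 3.90% in NSD and 2.60% and 2.83% in SD, and those of Adcy8 were 1.81% and 1.91% in NSD and 1.34% and 1.47% in SD. The summed level of the 9 isoforms was 282 and 276 CPM per kb in NSD and 337 and 342 in SD, and without Adcy1 it was 77.7 and 79.1 in NSD and 84.7 and 86.6 in SD. With coding sequence in place of all exons as the length, the share of Adcy1 was 79.9%, and with the longest protein-coding transcript it was 65.7%. Only the length was exchanged. The counts of the whole gene, untranslated exon included, were kept, so the values per kb of coding sequence also depend on untranslated length.

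Each isoform was then compared between SD and NSD, which asks whether a second bout of sleep deprivation alters its RNA on the ribosomes of neurons tagged in the first. A gene was called where its fold change exceeded 1.2 and its p, adjusted by Benjamini-Hochberg over all genes tested, was below 0.05. With edgeR's quasi-likelihood test and no term but condition, 0 of the 9 isoforms were called, where 3.10% of all genes were (0.770% higher and 2.33% lower). At an unadjusted p under 0.05 the same fit gave 4 isoforms (Adcy1, Adcy5, Adcy6 and Adcy9), against 19.1% of all genes. With the batch number as a block, 2 isoforms, Adcy1 and Adcy5, were called higher in SD and 0 lower, where 2.99% of genes were called higher (3.77% of the protein-coding ones) and 8.47% lower. DESeq2 called the same 2 isoforms higher, against 2.99% of genes, and 0 lower, against 5.79%. For 4 isoforms (Adcy1, Adcy3, Adcy5 and Adcy6) each SD value exceeded each NSD value, which was seen in 22.0% of all genes tested and in 26.5% of the protein-coding ones. For 3 isoforms (Adcy4, Adcy8 and Adcy9) the SD values were the lower ones without overlap, as in 27.5% of all genes and 20.0% of protein-coding genes, and for Adcy2 and Adcy7 the groups overlapped. The median log2 fold change of the 9 isoforms was −0.07, beside −0.02 for all genes tested. With 2 libraries against 2, an exact permutation test of a single gene cannot give a two-sided p below 0.333, so the p-values here rest on the spread that the fits share across genes.

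**Figure D2:**
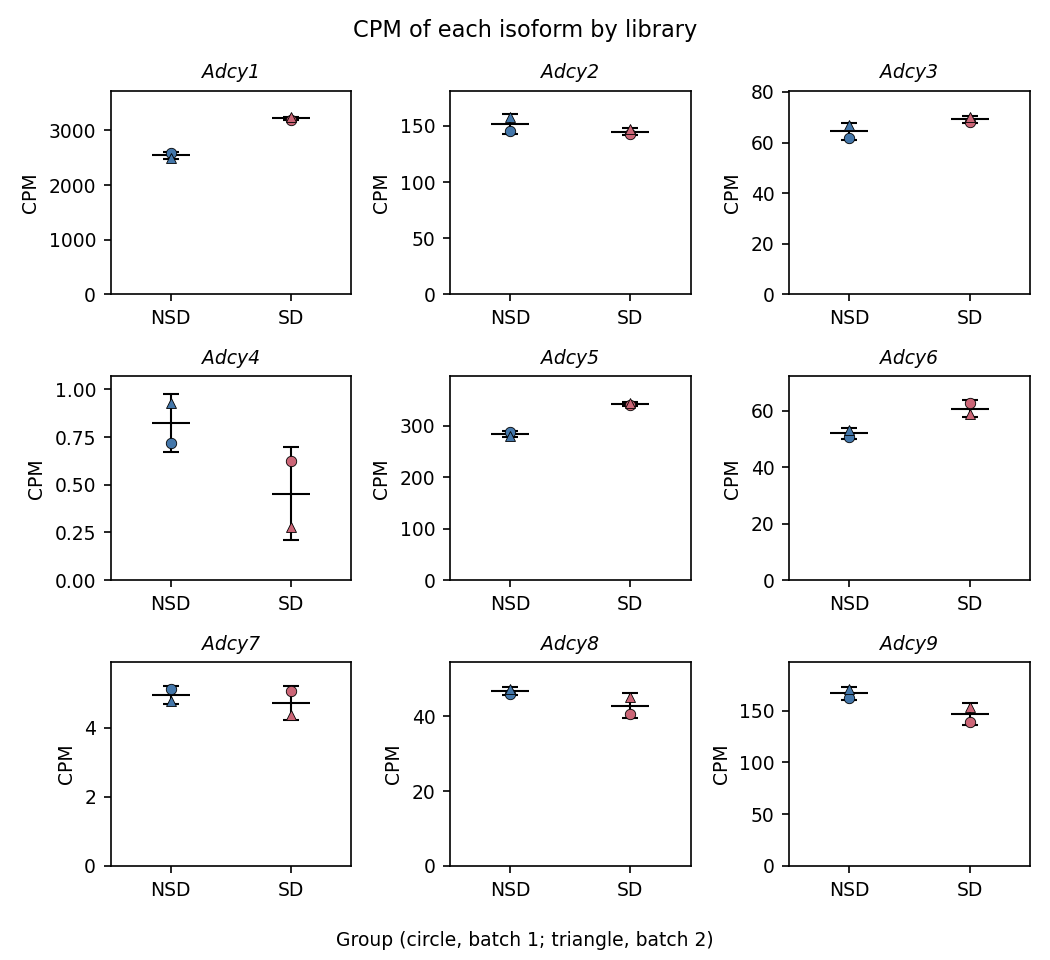
CPM of each isoform in the NSD (blue) and SD (red) libraries, with circles for batch 1, triangles for batch 2, horizontal bars for the mean and whiskers for the s.d. of 2 libraries; every vertical axis starts at 0. Adcy1 and Adcy5 were higher in both SD libraries by about 26.5% and 20.7% of their NSD means, and Adcy4 and Adcy9 were lower in both.

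Among the Ca2+/calmodulin-stimulated isoforms, Adcy1 was higher in SD in part of the fits, and Adcy8 and Adcy3 passed the test in none of them. Adcy1, an isoform expressed mainly in the nervous system, measured 2589 and 2503 CPM in NSD libraries 1 and 2 and 3196 and 3245 CPM in SD libraries 1 and 2. The groups were well apart, with means of 2546 ± 60.7 CPM in NSD and 3220.4 ± 34.9 CPM in SD (s.d., n = 2), a 1.26-fold difference. The log2 fold change was 0.34 (SE 0.11, 95% interval 0.08 to 0.60; edgeR adjusted p = 0.140), and it was 0.30 within batch 1 and 0.37 within batch 2. With the batch block it was 0.34 (edgeR adjusted p = 0.0184), and DESeq2 gave 0.36 (adjusted p = 1.08e-05). The estimates were alike in the 3 fits and the calls were not.

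Adcy8, which is also driven by Ca2+ and calmodulin and acts with Adcy1 in late-phase plasticity, measured 45.9 and 47.4 CPM in NSD and 40.6 and 45.2 CPM in SD. Both SD values were below both NSD values, but SD library 2 came close to NSD library 1. The log2 fold change was −0.12 (SE 0.08, 95% interval −0.29 to 0.05; edgeR adjusted p = 0.448, and 0.218 with the block), and it was −0.047 without SD library 1 and −0.19 without SD library 2. Adcy3, the cyclase of olfactory cilia and of neuronal primary cilia, measured 61.9 and 66.8 CPM in NSD and 68.2 and 70.0 CPM in SD, and its log2 fold change of 0.10 did not pass the test (SE 0.07; edgeR adjusted p = 0.491, and 0.269 with the block).

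The balance of Adcy1 with Adcy8 and with isoforms of other classes can be given inside each library. The ratio of the Adcy1 level per kb to the Adcy8 level per kb was 40.0 and 37.5 in NSD and 55.8 and 51.0 in SD. The ratio of Adcy1 to Adcy5 differed less, at 5.27 and 5.24 in NSD and 5.50 and 5.51 in SD, with both SD values higher. Adcy1 relative to Adcy9 went from 20.0 and 18.3 in NSD to 28.8 and 26.4 in SD. These ratios are given as a description and were not tested.

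Of the Ca2+-inhibited isoforms, neither was called with condition only, and Adcy5 alone was called with the batch block and by DESeq2. Adcy5, best known as the principal cyclase of striatal neurons, measured 287 and 279 CPM in NSD and 339 and 344 CPM in SD. The group means were 283 ± 5.58 and 342 ± 3.35 CPM (s.d., n = 2), a 1.21-fold difference and far wider than the spread between the pools. The log2 fold change was 0.27 (SE 0.08, 95% interval 0.10 to 0.45; edgeR adjusted p = 0.0936), at 0.24 within batch 1 and 0.30 within batch 2. Adcy5 was called with the batch block (log2 fold change 0.27; edgeR adjusted p = 0.0151) and by DESeq2 (0.29; adjusted p = 0.000804), and its fold lay just above the limit of 1.2.

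Adcy6, its closest relative and a broadly expressed isoform, measured 50.5 and 53.3 CPM in NSD and 62.7 and 58.6 CPM in SD. The groups did not overlap, with means of 51.9 ± 1.92 and 60.7 ± 2.90 CPM, a 1.17-fold difference. The log2 fold change was 0.23 (SE 0.07, 95% interval 0.07 to 0.39; edgeR adjusted p = 0.121). With the block the adjusted p was 0.0273 and with DESeq2 it was 0.0344, and in neither was Adcy6 called because its fold stayed under 1.2. The ratio of Adcy5 to Adcy6 levels per kb ranged from 4.92 to 5.51 over the 4 libraries, with NSD and SD libraries interleaved.

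**Figure D3:**
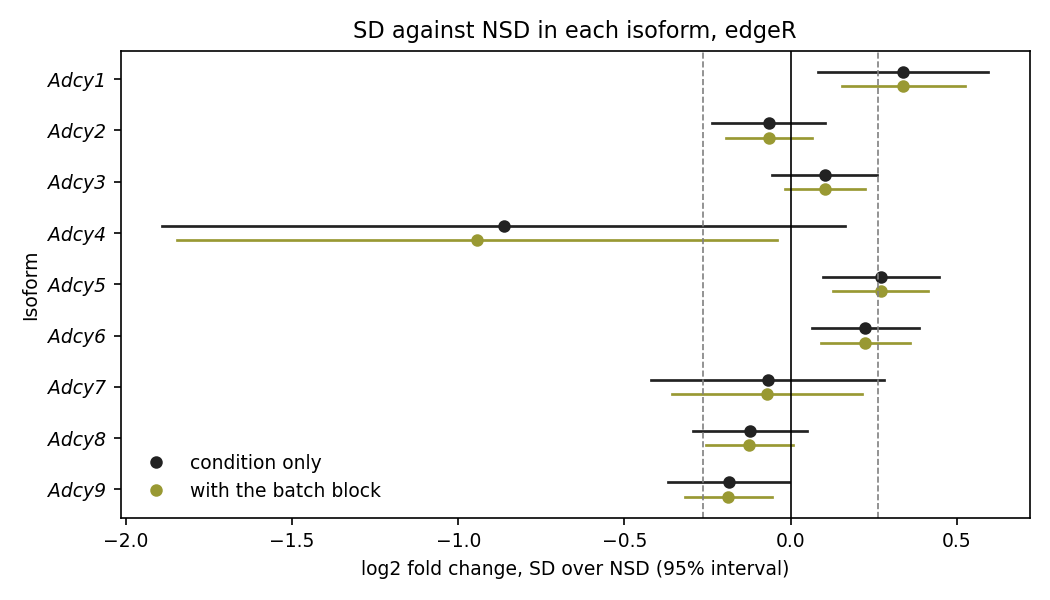
Log2 fold change of each isoform, SD over NSD, with its 95% interval, from edgeR with condition only (black) and with the batch block (olive); dashed lines mark a 1.2-fold difference in each direction. The intervals of Adcy1, Adcy5 and Adcy6 lie above 0 in both fits, that of Adcy9 lies below 0 in both, and that of Adcy4, the widest, lies below 0 only with the block.

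None of the isoforms stimulated by beta-gamma subunits passed the test. Adcy2, a brain isoform, measured 145 and 158 CPM in NSD and 142 and 147 CPM in SD, so the groups overlapped. Its log2 fold change was −0.07 (SE 0.07, 95% interval −0.23 to 0.10; edgeR adjusted p = 0.717, and 0.558 with the block). Adcy7, which is prominent in immune cells, measured 5.13 and 4.76 CPM in NSD and 5.06 and 4.37 CPM in SD, and these groups overlapped as well (log2 fold change −0.07, SE 0.15; edgeR adjusted p = 0.874). The sign for Adcy7 turned when NSD library 1 was left out (0.015) or when SD library 2 was left out (0.045).

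Adcy4, an isoform known from vascular cells, was close to the lower end of what these libraries measured. It had 119 and 146 counts in NSD libraries 1 and 2 and 113 and 53 counts in SD libraries 1 and 2, or 0.718, 0.929, 0.625 and 0.280 CPM. Exact Poisson 95% intervals, which cover counting error only, ran from 0.595 to 0.859 and from 0.785 to 1.09 CPM in NSD and from 0.515 to 0.752 and from 0.210 to 0.367 CPM in SD. The interval of SD library 1 thus overlapped that of NSD library 1, and SD library 2 was below the other 3 libraries beyond counting error. The log2 fold change was −0.86 (SE 0.45, 95% interval −1.89 to 0.17; edgeR adjusted p = 0.354, and 0.168 with the block), at −0.20 within batch 1 and −1.69 within batch 2. Without SD library 1 the difference was −1.55 (edgeR adjusted p = 0.0363, a call lower where 8.75% of all genes had one), with the remaining SD library assumed to vary like the NSD libraries. Without SD library 2 it was −0.38.

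The 4 libraries ranked the same way in Adcy4 and in the endothelial marker list. The 10 endothelial markers summed to 50.2 and 70.6 CPM in NSD and to 41.5 and 27.4 CPM in SD. All 10 had negative log2 fold changes, with a median of −0.76, where 7117 of 15551 protein-coding genes tested had negative ones. For 8 of the 10 the SD values were lower without overlap, as in 27.5% of all genes tested and 20.0% of protein-coding ones. edgeR called 0 of the 10 with condition only, where 2.33% of all genes were called lower, and 6 with the batch block, where 8.47% were. No marker was at 0, the least abundant having a mean of 0.531 CPM. The 7 mural cell markers summed to 78.2 and 77.3 CPM in NSD and 73.5 and 62.3 CPM in SD. The part of these cells in the Adcy4 values was not tested.

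**Figure D4:**
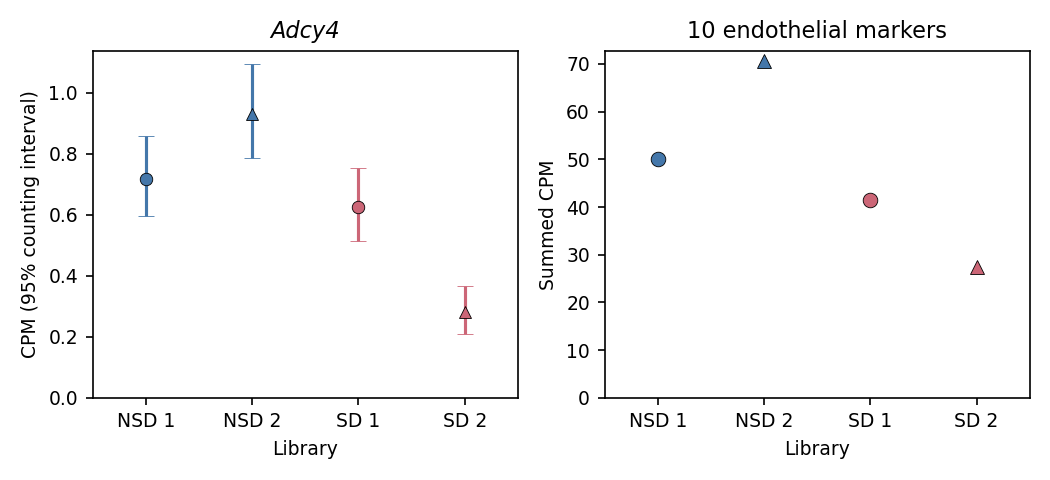
Left, CPM of Adcy4 in each library with its exact Poisson 95% interval; right, summed CPM of 10 endothelial marker genes in the same libraries, with NSD in blue, SD in red, circles for batch 1 and triangles for batch 2. In both panels NSD 2 is highest, followed by NSD 1, SD 1 and SD 2.

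Adcy9, the isoform least sensitive to forskolin, measured 162 and 171 CPM in NSD and 139 and 154 CPM in SD. Both SD values were below both NSD values, with means of 167 ± 6.60 and 146 ± 10.6 CPM (s.d., n = 2). The log2 fold change was −0.19 (SE 0.08, 95% interval −0.37 to −0.01; unadjusted p = 0.0446, edgeR adjusted p = 0.247). It was −0.22 within batch 1 and −0.15 within batch 2, and with the block the edgeR adjusted p was 0.0574. Without SD library 1 the difference was −0.11 (edgeR adjusted p = 0.751), and Adcy9 was called in none of the fits.

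Several members share exon sequence with another annotated gene, and whether strand was used in the counting is not given in the sources used here. Adcy7 shares 1505 exon bases with Brd7 on the opposite strand, whose count was 337% of that of Adcy7, so the level of Adcy7 is uncertain (Brd7 log2 fold change −0.02, edgeR adjusted p = 0.956). Adcy3 shares 2363 bases with Cenpo, with 5.49% of its count, and Adcy2 shares 1637 bases with Cfap90, with 3.88%. The Adcy2 overlap with Gm35161 (189 bases), the Adcy6 overlap with Gm29331 (605 bases) and the Adcy9 overlap with the pseudogene Gm6142 (325 bases) involved genes with under 1% of the member's count. In the GENCODE annotation Adcy9 also shares 1576 exon bases with Gm60084 and Adcy5 shares 568 with Gm61320, both on the opposite strand and neither analysed here. For Adcy1, Adcy4 and Adcy8 no annotated gene shared exon bases with the member.

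Small annotated loci lie inside the introns of Adcy2 and Adcy5, and no difference between a locus and the isoform around it was tested. Gm48593, a provisional locus (biotype TEC) on the same strand inside Adcy2, had 108 and 121 counts in NSD and 36 and 27 counts in SD. Its log2 fold change was −2.05 (SE 0.43; edgeR adjusted p = 0.0472, and 0.00765 with the block), against −0.07 for Adcy2. Gm49702, a locus of the same type inside Adcy5, had 169 and 68 counts in NSD and 48 and 41 in SD (log2 fold change −1.59; edgeR adjusted p = 0.125, and 0.0358 with the block), and NSD library 1 stood apart from the other 3. The pseudogene Gm7979, which lies inside Adcy2 on the opposite strand, did not pass either fit (log2 fold change −1.28; edgeR adjusted p = 0.169, and 0.103 with the block). The pseudogene Gm26929 in Adcy2, with 20 and 9 counts in NSD and 17 and 1 in SD, was too rare to test. Over all 1663 tested loci of the TEC biotype the median log2 fold change was −1.51, beside 0.02 for 15551 protein-coding genes, so the values of Gm48593 and Gm49702 were below 0 like the median of their biotype.

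The genes around the cyclases were read from a list of 57 other members of the cAMP pathway, of which 56 were tested (Gnb3, a G beta gene, was not). With condition only, edgeR called 0 of the 56, against 3.10% of all genes, and 14 had an unadjusted p under 0.05, against 19.1%. With the batch block edgeR called 3 higher and none lower, as did DESeq2 with the same genes, where 2.99% of all genes were called higher in each fit. Their median log2 fold change was 0.08, with 39 positive and 17 negative, beside −0.02 over all genes tested and 0.02 over the protein-coding genes. Positive values were found in 10533 of 22338 genes tested and in 8434 of 15551 protein-coding ones. The SD values were higher without overlap for 26 tested genes and lower for 2, Gnb4 and Adcy10, where 22.0% and 27.5% of all genes tested and 26.5% and 20.0% of the protein-coding ones were.

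The 3 genes called with the block act before and after the cyclases. Adcyap1, which encodes the peptide PACAP, a ligand that activates adenylyl cyclase through its receptor, measured 7.65 and 9.15 CPM in NSD and 11.3 and 10.6 CPM in SD (log2 fold change 0.38, SE 0.12; edgeR adjusted p = 0.128, and 0.0313 with the block). Pde11a, a phosphodiesterase that degrades cAMP and cGMP, measured 25.6 and 24.9 CPM in NSD and 31.1 and 31.3 CPM in SD (log2 fold change 0.31, SE 0.07; edgeR adjusted p = 0.0614, and 0.00807 with the block). Prkar2a, a regulatory subunit of protein kinase A, measured 68.0 and 71.7 CPM in NSD and 82.3 and 87.0 CPM in SD (log2 fold change 0.28, SE 0.07; edgeR adjusted p = 0.0665, and 0.00415 with the block). In all 3 the groups were apart.

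In each class the most abundant member was as follows, on the scale of CPM per kb. Gnas, the stimulatory alpha subunit shared by all membrane isoforms, stood at 61.2 and the inhibitory Gnao1 at 53.0, both below Adcy1 and above Adcy5. Gnb1 stood at 66.0 and Gng2 at 27.1 among the beta and gamma subunits, and Calm3, the calmodulin gene with the highest level, at 665.7. Ric8a, a chaperone and exchange factor for alpha subunits, stood at 6.07 and the PACAP receptor Adcyap1r1 at 18.8. Downstream of cAMP, the levels were 48.3 for the phosphodiesterase Pde2a, 66.6 for the kinase subunit Prkar1a, 35.3 for the exchange factor Rapgef4 and 4.76 for the transcription factor Creb1. None of these passed the test in either edgeR fit, and their log2 fold changes ran from −0.03 (Gng2) to 0.19 (Rapgef4).

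By class, all 6 protein kinase A subunits had positive log2 fold changes, as did 8434 of 15551 protein-coding genes tested. For 4 of these subunits the SD values were higher without overlap, as in 22.0% of all genes tested and 26.5% of protein-coding ones. None of the subunits was called with condition only, against 3.10% of all genes, and 1, Prkar2a, was called higher with the block, against 2.99%. Of the 16 phosphodiesterases, 8 had positive and 8 negative log2 fold changes, with a median of 0.01. The SD values were higher without overlap for 6 of them and lower for 0, where 27.5% of all genes and 20.0% of protein-coding genes were lower. With the block 1, Pde11a, was called higher, against 2.99% of all genes, and with condition only 0 were called, against 3.10%, and 2 had an unadjusted p under 0.05, against 19.1%. The soluble cyclase Adcy10, which is regulated by bicarbonate and Ca2+ and not by G proteins, was barely present at 0.464 and 0.484 CPM in NSD and 0.299 and 0.280 CPM in SD, and its log2 fold change of −0.71 did not pass the test (edgeR adjusted p = 0.409).

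**Figure D5:**
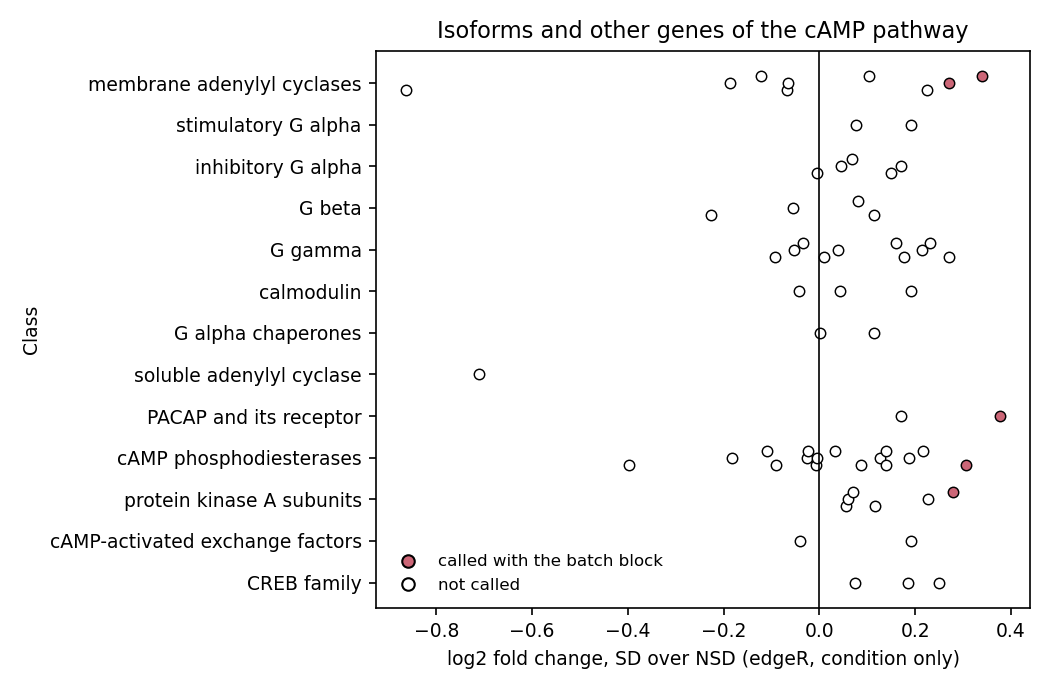
Log2 fold change, SD over NSD, from edgeR with condition only, for the 9 membrane isoforms and 56 other genes of the cAMP pathway in 12 classes; each point is a gene, and filled points were called with the batch block. The filled points are Adcy1, Adcy5, Adcyap1, Pde11a and Prkar2a, at log2 fold changes between 0.27 and 0.38.

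The pattern of Adcy1 over the 4 libraries was set beside that of 8634 protein-coding genes with a mean of at least 10 CPM, by the root mean square difference in log2 CPM after centering each gene on its mean. The nearest 5 genes were Sbk1 (difference 0.0075), Dzank1 (0.0138), Nynrin (0.0139), Rap1gap2 (0.0144) and Chml (0.0152). Rap1gap2 encodes a GTPase-activating protein for Rap1, and Chml a Rab escort protein. Sbk1 measured 200.4 and 195 CPM in NSD and 248 and 255 CPM in SD. The log2 fold changes of the 5 genes ran from 0.32 to 0.35, which their choice by likeness to Adcy1 fixes, and with only 4 libraries many genes can come close.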

How the data were processed

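The authors trimmed reads, aligned them to GRCm39 (mm39) with STAR 2.7.8a in Partek Flow and quantified Ensembl 110 genes by expectation-maximization; libraries came from a stranded total RNA kit with rRNA depletion. The deposited values are estimated counts without normalization: 55.6% of genes have a non-whole value and no gene totals under 10. Values were rounded, and genes exceeding 5 counts in each library were tested in R 4.3.3 with edgeR 4.0.16 (TMM factors 0.965 to 1.02, glmQLFit, glmQLFTest) and Benjamini-Hochberg adjustment; calls required a fold over 1.2 at an adjusted p below 0.05. Each p-value sets a difference against the spread between pools, estimated with information shared across genes.

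The labels' batch number pairs NSD with SD libraries, and the libraries of a batch deviated together from their groups (correlation 0.178 across genes). Alternatives were this block, DESeq2 1.42.0, its size factors in edgeR, other count filters, protein-coding genes only, no fold threshold, other gene lengths and each library left out. Fits were tested on simulated data. Exon lengths, positions and promoters came from GENCODE M39 on GRCm39, which held 99.18% of the deposited gene IDs. Named genes were all members, pathway genes called in either edgeR fit, the most abundant gene of each pathway class, genes inside or overlapping a member, and the 5 genes nearest to Adcy1. Gnb3 and Gnb4 were named after their values were seen. The members and lists were chosen with earlier results of these data known.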

Additional observations from a re-analysis of the deposited data

How the results depend on the processing

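With 2 pools per group the calls depended on the model more than the differences did. Over all genes edgeR called 172 higher and 520 lower; the counts were 668 and 1891 with the replicate block, 669 and 1294 with DESeq2, 50 and 80 without a count filter, 1 and 0 with filterByExpr, 51 and 39 with protein-coding genes only, and 124 to 308 higher and 78 to 1955 lower when 1 library was left out (292 higher without SD 1 and 308 without SD 2; 78 lower without NSD 1 and 1955 without SD 1). The isoforms called higher went from 0 to 2 with the replicate block and to 2 with DESeq2, and pathway genes from 0 to 3 with each. Isoforms called lower ranged from 0 to 1 when 1 library was left out, the 1 being Adcy4 without SD 1. The cause was not tested. The block changed no other call among the isoforms and pathway genes. Adcy1 and Adcy5 were between 0.25 and 0.39 on the log2 scale in all 11 alternatives. Adcy7 ranged from −0.18 to 0.05 when 1 library was left out and changed sign, to 0.015 without NSD 1 and 0.045 without SD 2, and the median of the isoforms was then 0.015 and 0.045. No other isoform changed sign, although Adcy2 was −0.0055 and Adcy3 0.16 without NSD 2.

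Levels depended on the length used, with the counts of the whole gene kept each time. In CPM per kb of the longest coding sequence they were 859.7 (Adcy1), 82.5 (Adcy5), 44.9 (Adcy2), 38.0 (Adcy9), 19.4 (Adcy3), 16.1 (Adcy6), 11.9 (Adcy8), 1.46 (Adcy7) and 0.198 (Adcy4), which put Adcy3 above Adcy6. In CPM per kb of the longest protein-coding transcript the levels were 232 (Adcy1), 43.2 (Adcy5), 33.2 (Adcy2), 19.5 (Adcy9), 9.31 (Adcy6), 8.82 (Adcy3), 5.78 (Adcy8), 0.524 (Adcy7) and 0.181 (Adcy4). That order was the same as with all exons. Depth limited only Adcy4 and Adcy7.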
